A study of Homo sapiens with 4 samples.

Results

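Semaphorins, plexins and neuropilins, the ligands and receptors of a guidance pathway first described in growing axons, were measured in a neuroblastoma cell line after knockdown of SAPCD2. The members were the protein-coding genes whose GENCODE symbol begins with SEMA3 to SEMA7 or with PLXNA, PLXNB, PLXNC or PLXND, plus NRP1 and NRP2, which gave 31 of the 64252 genes in the count table. They comprised 20 ligands and 11 receptors, defined by their names, and all 31 had at least 1 count. The family was taken up with earlier results of these data known, so its counts are a description. RNA-seq was performed on total RNA from SK-N-BE(2) cells, a human neuroblastoma line, transfected with scrambled shRNA (sh-Scb) or with shRNA against SAPCD2 (sh-SAPCD2), with 2 libraries in each group. The labels name neither the hairpin used nor whether the libraries came from separate cultures, so p-values measure only the spread between these libraries, and with 1 cell line and 1 control shRNA an effect of the hairpin and an effect of losing SAPCD2 cannot be told apart.

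Semaphorins are secreted or membrane-bound proteins that share a Sema domain and steer growing axons and migrating cells, mostly by repulsion. Plexins are their transmembrane receptors, whose intracellular part acts on small GTPases that control the cytoskeleton and adhesion. Most secreted class 3 semaphorins need a neuropilin to bind first, and neuropilins also bind VEGF, while the membrane-bound classes bind plexins directly. In the sympathetic nervous system, from which neuroblastoma arises, these proteins guide neural crest cells and sympathetic axons.

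Libraries held 25347900 to 31850997 counts, and 3 counts, taken as the smallest detectable amount, equalled 0.0942 to 0.118 CPM (read counts relative to the size of the library as scaled by TMM). SAPCD2 itself had 83.4 and 82.1 CPM in the sh-Scb libraries and 35.3 and 52.4 CPM in the sh-SAPCD2 libraries, a log2 fold change of −0.91 (SE 0.193, adjusted p = 0.0206), so that 42.6% and 63.3% of the mean control level remained. Of the adrenergic neuroblast markers, MYCN was higher (3202 to 6489.6 CPM, log2 fold change 1.02), ISL1 and DBH were lower, and PHOX2A, HAND2, GATA2, GATA3 and TH were not called, each with over 100 CPM in every library. Of 8 mesenchymal markers none was higher and VIM, FN1 and NOTCH2 were lower, while SNAI2, TWIST1 and CD44 were not called. All 5 endothelial markers, 4 of 5 leukocyte markers and 3 of 5 Schwann cell markers stayed under 1 CPM in every library, and the defining CD3E and SOX10 had no count. PTPRC was present at 8.93 to 12.3 CPM and S100B at 1.74 to 3.75 CPM, neither of them called. The part of these marker genes in the differences below was not tested.

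Of the 31 members, 30 passed the filter on low counts, and all 30 exceeded its cutoff of 0.365 CPM (from the median library total, without TMM scaling) in every library. The lowest of them were SEMA3B, SEMA3G and SEMA5B, and the one left out was SEMA6B, with 3 and 0 counts in the sh-Scb libraries and 2 and 7 counts in the sh-SAPCD2 libraries. At an adjusted p under 0.05 in edgeR's quasi-likelihood fit over all 18779 tested genes, 13 members were higher in sh-SAPCD2 cells, 4 were lower and 13 were not called. Across all tested genes 12.4% were higher, 12.5% were lower and 24.8% were called in either direction. Among the members the shares were 43.3% higher and 13.3% lower, and the median log2 fold change was 0.31 against 0.02 over all tested genes. With an absolute log2 fold change over 1 required as well, the threshold of the study, 6 members were higher and 1 was lower, where 4.69% of all tested genes were higher, 5.15% were lower and 9.84% were either. The values of the 2 groups did not overlap for 24 of the 30 members (80.0%), against 67% of all tested genes. Without the filter on low counts, 6 members were higher and 1 was lower, where 3.09% and 3.38% of all genes were.

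**Figure D1:**
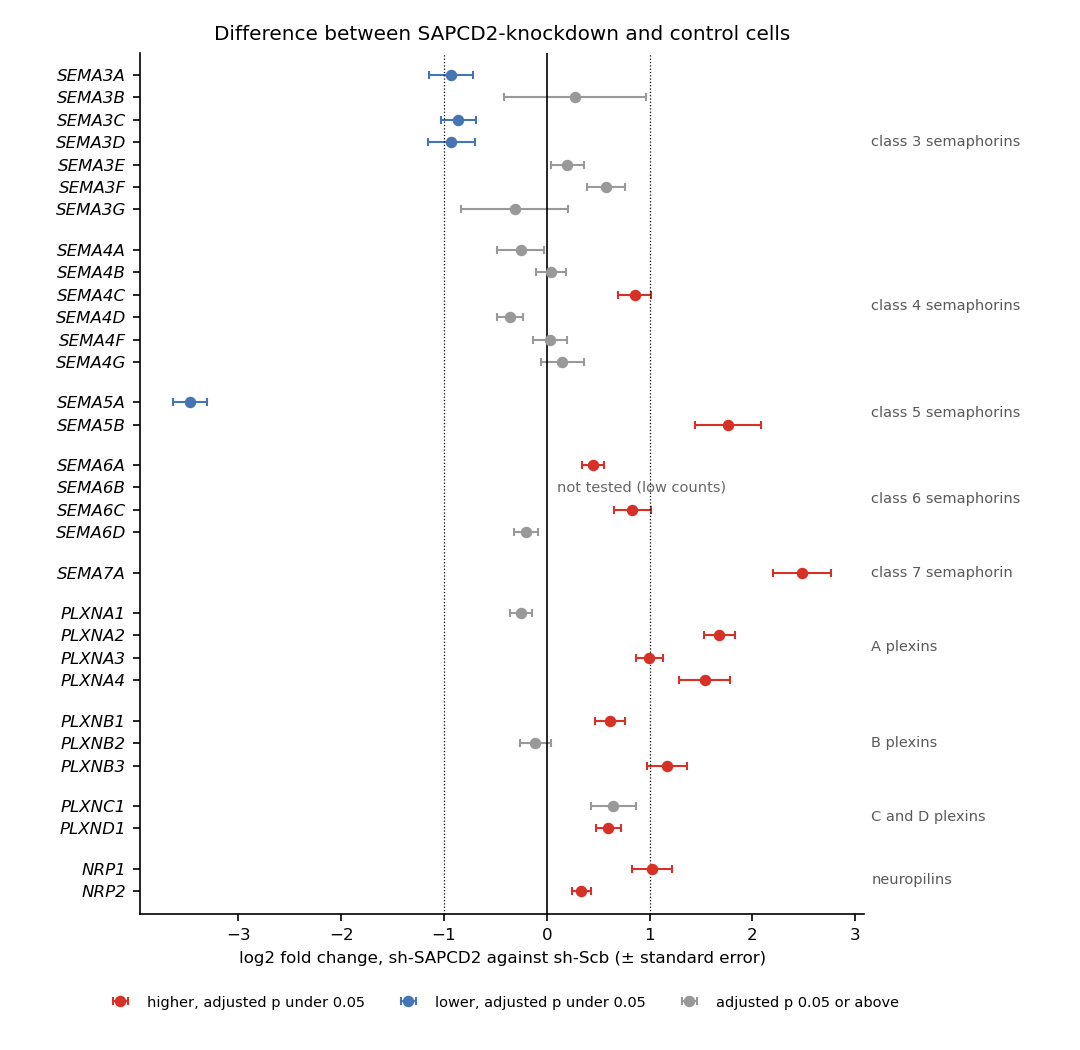
Log2 fold change of each tested member (horizontal axis, sh-SAPCD2 against sh-Scb, bars are standard errors, 2 libraries a group), grouped by family. SEMA5A lies furthest to the left at −3.47 and SEMA7A furthest to the right at 2.48, and no receptor is called lower.

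The calls are given here by role, beside the 12.4% of all tested genes that were higher and the 12.5% that were lower. Of 11 receptors, 8 were higher (72.7%), none was lower and 3 were not called, with a median log2 fold change of 0.65. Of 19 tested ligands, 5 were higher (26.3%) and 4 were lower (21%), with a median of 0.04. All 4 lower members were thus ligands, 3 of them secreted class 3 semaphorins. With each library corrected for GC content and length, 9 receptors were higher and 2 were lower, PLXNA1 (−0.47, adjusted p = 0.0011) and PLXNB2 (−0.38, adjusted p = 0.00163). In that fit 22.9% of all genes were higher and 19.9% were lower. Without sh-SAPCD2 replicate 2 the log2 fold change was −0.33 for both PLXNA1 and PLXNB2. Without sh-SAPCD2 replicate 1 it was −0.18 for PLXNA1 and 0.07 for PLXNB2. With 1 library left out the receptor median ranged from 0.635 to 0.851 and the ligand median from −0.093 to 0.19.

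SEMA5A, a membrane-bound class 5 semaphorin with thrombospondin repeats that can attract or repel axons, fell the most of any member. It lies on the minus strand at chr5:9035033-9546075 of hg38 and has 23 exons in its canonical transcript. The sh-Scb libraries held 705 and 673 counts (25.5 and 24.4 CPM) and the sh-SAPCD2 libraries 57 and 71 counts (2.25 and 2.26 CPM). Every control value was thus more than 10 times every knockdown value, and the libraries of each group lay close together (25 ± 0.751 and 2.25 ± 0.00644 CPM, SD, n = 2). The log2 fold change was −3.47 (SE 0.166, adjusted p = 0.00201), an 11.1-fold lower level, and it ranged from −3.50 to −3.37 over 13 alternative settings. A lncRNA on the opposite strand overlaps an exon of SEMA5A, and it did not pass the filter.

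SEMA5B, the other class 5 semaphorin, moved the opposite way from a low level. It lies on the minus strand at chr3:122909082-123028605. Its counts were 19 and 17 in sh-Scb and 52 and 75 in sh-SAPCD2, or 0.687 and 0.617 against 2.05 and 2.39 CPM. Both knockdown libraries were higher than both controls, with a log2 fold change of 1.76 (SE 0.321, adjusted p = 0.0135). Per length of exon, SEMA5A made up 96.3% and 96.5% of the summed class 5 level in the sh-Scb libraries and 43.1% and 39.6% in the sh-SAPCD2 libraries. The sum itself went from 2.15 and 2.06 to 0.424 and 0.464 CPM per kb, so the class as a whole was lower while its rarer member was higher.

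SEMA7A, the only class 7 semaphorin, is held to the membrane by a lipid anchor and binds PLXNC1 as well as integrins. It lies on the minus strand at chr15:74409289-74433958. SEMA7A had 37 and 26 counts (1.34 and 0.944 CPM) in sh-Scb and 144 and 223 counts (5.68 and 7.09 CPM) in sh-SAPCD2. The groups did not overlap, and the mean went from 1.14 ± 0.279 to 6.39 ± 0.997 CPM (SD, n = 2), with a log2 fold change of 2.48 (SE 0.284, adjusted p = 0.00417), or 5.59-fold. It was the largest increase among the members. Its receptor PLXNC1 had 6.80 and 5.95 CPM in sh-Scb and 11.5 and 8.49 CPM in sh-SAPCD2, which did not pass the test (0.65, SE 0.216, adjusted p = 0.0761) but did so with the GC content and length correction. The PLXNC1 log2 fold change was 0.41 without sh-SAPCD2 replicate 1 and 0.85 without sh-SAPCD2 replicate 2.

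Promoter sequences are shown for the 3 semaphorins above and for PLXNA2, the members with the largest differences, so that the start regions of genes that moved apart can be compared. They come from RefSeq (GRCh38.p14), run 5′ to 3′ on the gene's strand from 250 bases before to 50 bases after the start, and carry CG dinucleotides in capitals. SEMA5A is at chr5:9546026-9546325, SEMA5B at chr3:123028556-123028855, SEMA7A at chr15:74433909-74434208 and PLXNA2 at chr1:208244335-208244634, all on the minus strand.
SEMA5A: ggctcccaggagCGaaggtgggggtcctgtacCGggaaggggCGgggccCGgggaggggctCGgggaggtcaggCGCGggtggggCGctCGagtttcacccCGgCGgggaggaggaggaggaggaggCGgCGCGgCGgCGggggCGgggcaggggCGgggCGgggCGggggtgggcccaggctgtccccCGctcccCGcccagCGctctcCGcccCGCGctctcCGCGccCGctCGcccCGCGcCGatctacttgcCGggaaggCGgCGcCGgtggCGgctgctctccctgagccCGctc
SEMA5B: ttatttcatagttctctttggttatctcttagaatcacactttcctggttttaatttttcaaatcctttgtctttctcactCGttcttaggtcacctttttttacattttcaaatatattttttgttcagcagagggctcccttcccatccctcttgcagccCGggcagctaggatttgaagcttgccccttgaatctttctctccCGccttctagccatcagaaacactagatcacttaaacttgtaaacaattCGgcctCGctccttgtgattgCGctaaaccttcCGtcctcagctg
SEMA7A: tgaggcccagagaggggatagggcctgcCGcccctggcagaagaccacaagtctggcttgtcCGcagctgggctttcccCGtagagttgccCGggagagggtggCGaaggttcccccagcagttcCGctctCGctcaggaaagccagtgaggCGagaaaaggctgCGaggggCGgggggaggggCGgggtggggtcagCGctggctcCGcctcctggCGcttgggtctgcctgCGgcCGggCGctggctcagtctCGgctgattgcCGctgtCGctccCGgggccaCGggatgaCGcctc
PLXNA2: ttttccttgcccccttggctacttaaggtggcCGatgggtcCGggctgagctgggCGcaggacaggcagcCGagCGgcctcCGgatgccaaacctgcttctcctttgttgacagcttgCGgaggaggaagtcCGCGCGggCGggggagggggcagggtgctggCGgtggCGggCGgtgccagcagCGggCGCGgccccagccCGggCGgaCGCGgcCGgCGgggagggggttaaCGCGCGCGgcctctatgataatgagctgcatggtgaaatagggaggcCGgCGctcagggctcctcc
The SEMA5A window is 81% GC with 39 CG dinucleotides, SEMA7A 70% with 23, PLXNA2 70.3% with 29 and SEMA5B 42% with 7. The medians were 65.3% and 26 over the 10996 promoters of tested protein-coding genes, called all promoters below. Among the 4 windows, the pair of class 5 genes differ most in base composition at their starts. Of the 31 members, 27 had a promoter in the RefSeq set. On both strands, none of the 27 held TTTCCCGC, TTTGGCGC, TTTCGCGC or TTTGCCGC, the letters of an E2F site, against 5.22% of all promoters. CACGTG, an E-box read by MYC proteins, was in 3 (SEMA3E, SEMA4D and SEMA6D, 11.1%) against 10.1% of all promoters, and TATAAA was in none against 5.75%. These are matches of letters only.

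Class 3 semaphorins are the secreted ones, and 3 of the 7 were called lower and none was called higher, while 3 had a log2 fold change above 0. SEMA3A, the classic collapsing signal for axons and a ligand of NRP1, lies at chr7:83955777-84492724 and had 26 and 25.7 CPM in sh-Scb and 16.4 and 10.7 CPM in sh-SAPCD2 (−0.93, SE 0.217, adjusted p = 0.0275). SEMA3C, which acts through both neuropilins, lies at chr7:80742538-80922359 and had 30.9 and 30.6 against 19.3 and 14.7 CPM (−0.86, SE 0.169, adjusted p = 0.017). For both genes the 2 knockdown libraries lay below the 2 controls, and sh-SAPCD2 replicate 2 was the lower one. SEMA3D, at chr7:84995553-85187056, had 6.04 and 4.97 against 3.08 and 2.70 CPM (−0.93, SE 0.229, adjusted p = 0.0319). The SEMA3D call was lost in DESeq2 (adjusted p = 0.0579), and its log2 fold change was −0.79 without sh-Scb replicate 1 and −1.06 without sh-Scb replicate 2. Without the filter on low counts SEMA3A, SEMA3C and SEMA3D all lost their calls (adjusted p = 0.0911, 0.0574 and 0.0769). SEMA3E, a ligand that binds PLXND1 without a neuropilin, had 8.86 and 8.93 against 10.6 and 9.89 CPM (0.20, adjusted p = 0.396).

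The 3 lower class 3 genes lie within 4.445 Mb of chromosome 7, from 80742538 to 85187056, together with SEMA3E. That interval holds 7 protein-coding genes, in the order SEMA3C, HGF, CACNA2D1, PCLO, SEMA3E, SEMA3A and SEMA3D. PCLO was also lower (−0.72, adjusted p = 0.0297), while HGF (0.24, adjusted p = 0.316), CACNA2D1 (0.10, adjusted p = 0.647) and SEMA3E were not called. Lower and uncalled genes were interspersed along the interval. The 3 neighbors are given for their position, after the values were seen.

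SEMA3F, a ligand of NRP2, had 27.2 and 24.0 CPM in sh-Scb and 32 and 43.9 CPM in sh-SAPCD2, which did not pass the test (0.57, SE 0.185, adjusted p = 0.0696). It was called higher in DESeq2 and with the GC content and length correction. Its log2 fold change was 0.77 without sh-SAPCD2 replicate 1 and 0.33 without sh-SAPCD2 replicate 2. SEMA3B had 1.37 and 1.38 against 0.513 and 2.77 CPM, with the controls between the knockdown libraries. The SEMA3B log2 fold change was 1.00 without sh-SAPCD2 replicate 1 and had the opposite sign, −1.42, without sh-SAPCD2 replicate 2. SEMA3G had 1.41 and 0.581 against 0.671 and 0.922 CPM, and its groups overlapped. Per length, SEMA3F made up 35.6% and 33.6% of the class 3 sum in sh-Scb and 49.5% and 61.4% in sh-SAPCD2. SEMA3C went from 32.1% and 34.0% to 23.6% and 16.2%, and SEMA3A from 17.8% and 18.8% to 13.2% and 7.83%. The sum over the class was 15.8 and 14.8 CPM per kb in the controls and 13.4 and 14.8 CPM per kb in the knockdown, so the make-up of the class differed more than its total.

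**Figure D2:**
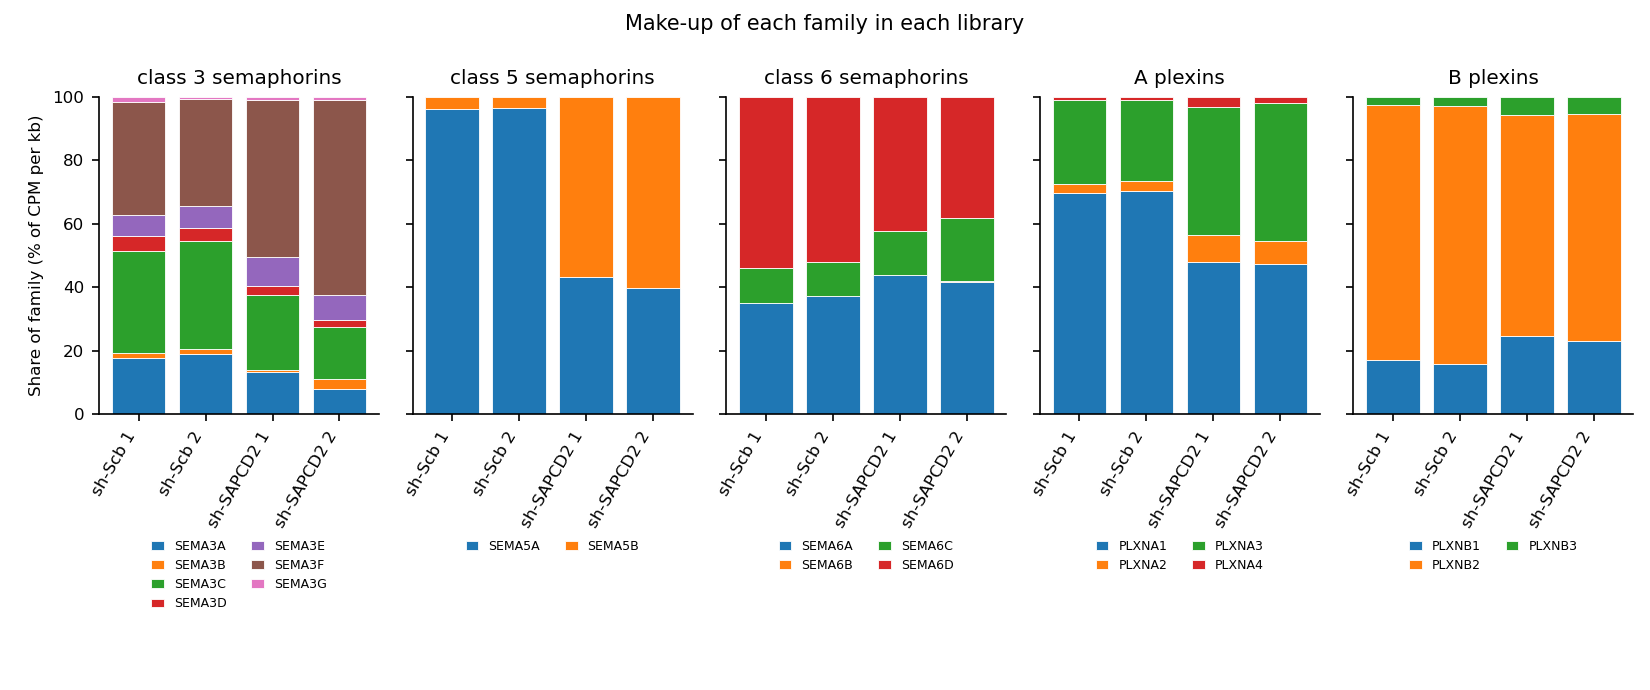
Share of each member in its family (percent of summed CPM per kb of exon, 1 bar per library) for 5 families. SEMA5A falls from 96.3% and 96.5% to 43.1% and 39.6% of class 5, and PLXNA1 from 69.5% and 70.2% to 47.8% and 47.2% of the A plexins.

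Class 4 semaphorins are membrane-bound and mostly bind B plexins. SEMA4C, which binds PLXNB2, was the only one of 6 called. It lies at chr2:96859718-96870757 and had 49.4 and 51.6 CPM in sh-Scb and 78.2 and 105 CPM in sh-SAPCD2 (0.86, SE 0.161, adjusted p = 0.0147). SEMA4D, the ligand of PLXNB1, had 46.6 and 42.2 against 33.9 and 35.5 CPM, groups that did not overlap but did not pass the test (−0.36, SE 0.124, adjusted p = 0.0839). SEMA4D was called lower with the GC content and length correction. Its log2 fold change was −0.33 without sh-SAPCD2 replicate 1 and −0.39 without sh-SAPCD2 replicate 2. SEMA4A (−0.25), SEMA4B (0.04), SEMA4F (0.03) and SEMA4G (0.15) had adjusted p of 0.457 to 0.902.

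Class 6 semaphorins are membrane-bound ligands of A plexins. SEMA6A, at chr5:116443555-116574823, had 96.2 and 101 CPM in sh-Scb and 141 and 127 CPM in sh-SAPCD2 (0.45, SE 0.107, adjusted p = 0.0297). SEMA6C, at chr1:151131685-151146631, had 16.1 and 15.5 against 23.9 and 32.2 CPM (0.83, SE 0.181, adjusted p = 0.0226). Both were higher in both knockdown libraries. Their log2 fold changes were 0.41 and 0.86 without sh-Scb replicate 1, and 0.48 and 0.80 without sh-Scb replicate 2. SEMA6D, the most abundant semaphorin per length in the controls, had 117 and 111 against 106 and 91.4 CPM (−0.20, adjusted p = 0.247). Its log2 fold change was −0.32 without sh-SAPCD2 replicate 1 and −0.096 without sh-SAPCD2 replicate 2. SEMA6A exons overlap 2 antisense lncRNAs, and the strand setting of the counting is not given in the sources used here.

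The A plexins transmit class 3 signals with neuropilins and class 6 signals alone. PLXNA2, a receptor of SEMA3A and SEMA6A that lies on the minus strand at chr1:208022242-208244384, had 7.52 and 8.20 CPM in sh-Scb and 25.8 and 24.6 CPM in sh-SAPCD2. Its mean went from 7.86 ± 0.483 to 25.2 ± 0.84 CPM (SD, n = 2), 3.21-fold (1.68, SE 0.147, adjusted p = 0.00263). PLXNA4, which binds SEMA3A and SEMA6A and lies at chr7:132123340-132648688, had 3.58 and 3.34 against 12 and 8.11 CPM (1.53, SE 0.25, adjusted p = 0.00995). PLXNA3, a main receptor of SEMA3F, lies at chrX:154458281-154477779 and had 58.1 and 55.4 against 102 and 124 CPM (1.00, SE 0.131, adjusted p = 0.00573). All 3 had both knockdown libraries above both controls. An exon of PLXNA3 overlaps LAGE3 on the opposite strand.

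PLXNA1, the most abundant A plexin in the controls, did not rise with the others. It had 146.5 and 146.0 CPM in sh-Scb and 117 and 129 CPM in sh-SAPCD2, both below the controls, without passing the test (−0.25, SE 0.103, adjusted p = 0.127). Per length, PLXNA1 went from 69.5% and 70.2% of the A plexin sum to 47.8% and 47.2%, PLXNA3 from 26.5% and 25.6% to 40.2% and 43.5%, and PLXNA2 from 2.89% and 3.20% to 8.58% and 7.29%. The sum was 18.8 and 18.5 CPM per kb in the controls and 21.7 and 24.4 CPM per kb in the knockdown. PLXNA1 remained the largest share in every library.

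Among the B plexins, PLXNB3 and PLXNB1 were higher and PLXNB2 was not called. PLXNB3, a receptor of SEMA5A, lies at chrX:153764196-153779346 and had 4.27 and 4.61 CPM in sh-Scb and 9.04 and 10.9 CPM in sh-SAPCD2 (1.17, SE 0.195, adjusted p = 0.0107). Its exons overlap SRPK3 on the same strand. PLXNB1, at chr3:48403854-48430086, had 40.3 and 36.2 against 52.8 and 64.6 CPM (0.62, SE 0.146, adjusted p = 0.0287). Its log2 fold change was 0.70 without sh-Scb replicate 1 and 0.54 without sh-Scb replicate 2. PLXNB2, the receptor of SEMA4C, had 142 and 139 against 111 and 148 CPM, with the controls between the knockdown libraries (−0.11, adjusted p = 0.623). Per length it made up 80.5% and 81.4% of the B plexin sum in sh-Scb and 69.6% and 71.4% in sh-SAPCD2.

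PLXND1, known for its part in vessel patterning, lies at chr3:129555214-129606676 and had 131 and 138 CPM in sh-Scb and 185 and 223 CPM in sh-SAPCD2 (0.60, SE 0.122, adjusted p = 0.0189). The log2 fold change was 0.56 without sh-Scb replicate 1 and 0.635 without sh-Scb replicate 2. Per length PLXND1 was the third of all members in the controls and the first in the knockdown.

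Both neuropilins were higher. NRP1, at chr10:33177492-33336262, had 8.93 and 8.20 CPM in sh-Scb and 19.8 and 15.0 CPM in sh-SAPCD2 (1.02, SE 0.192, adjusted p = 0.0149). NRP2, at chr2:205681990-205798133, had 225 and 219 against 289 and 271 CPM (0.34, SE 0.0951, adjusted p = 0.0481), the smallest called difference among the members. Both knockdown libraries exceeded both controls for each gene. The NRP2 call was lost with DESeq2 size factors in edgeR (adjusted p = 0.0528), with library totals (adjusted p = 0.0632), with protein-coding genes only (adjusted p = 0.0571), without the filter on low counts (adjusted p = 0.093) and with same-numbered libraries as a replicate block (adjusted p = 0.114). The NRP2 log2 fold change was 0.35 without sh-Scb replicate 1 and 0.32 without sh-Scb replicate 2. Per length NRP1 was 4.57% and 4.33% of the neuropilin sum in the controls and 7.66% and 6.24% in the knockdown, so NRP2 stayed the predominant neuropilin. Exons of both genes overlap antisense lncRNAs that were not tested.

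**Figure D3:**
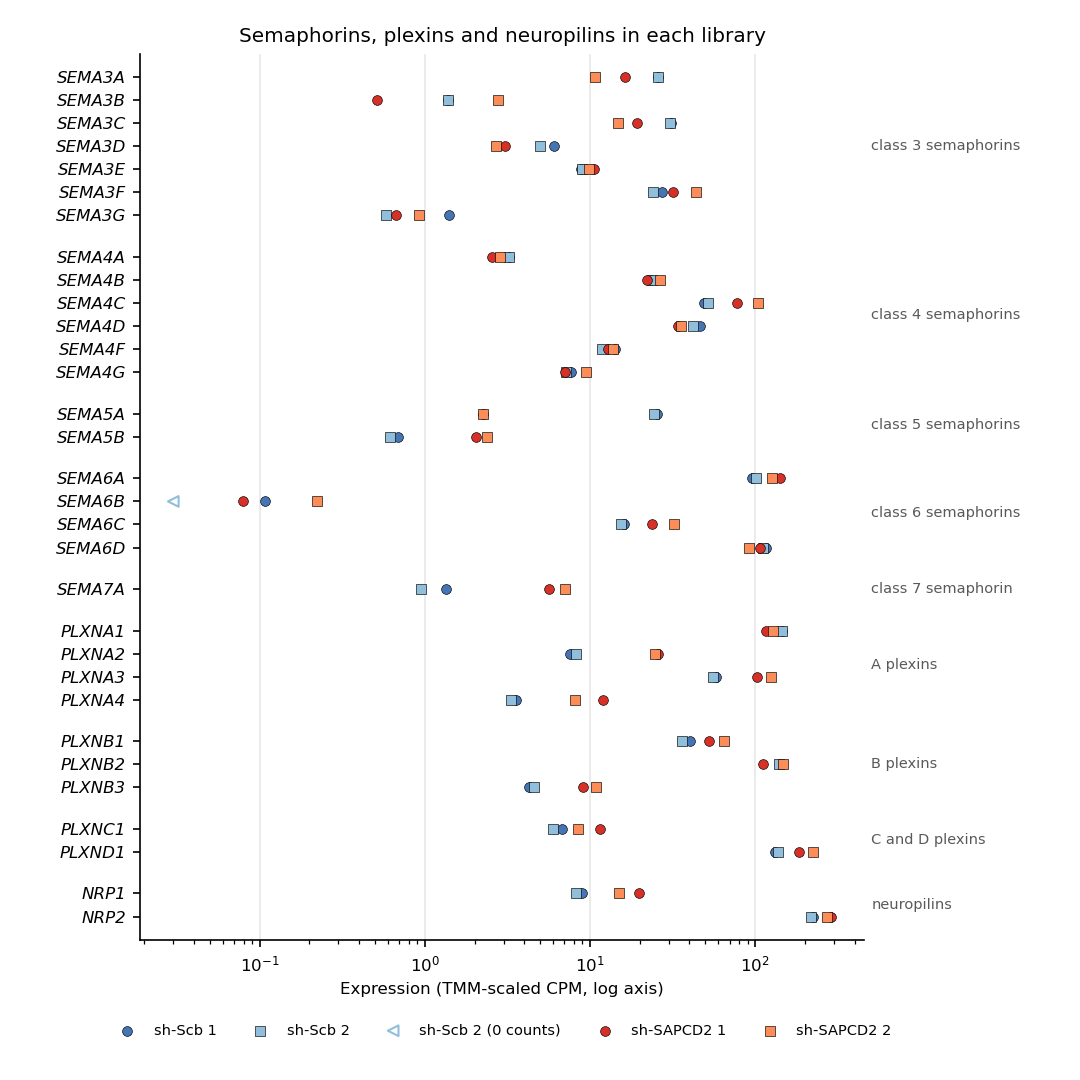
Level of each member in each library (CPM on a log axis, 2 sh-Scb and 2 sh-SAPCD2 points a gene). SEMA5A drops from about the level of SEMA3A to near that of SEMA5B, and the points of PLXNA2, PLXNA4 and SEMA7A lie apart between the groups.

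In order of level per length of exon, the controls were led by PLXNB2 at 19.3, NRP2 at 16, PLXND1 at 14.1, SEMA6D at 13.4 and PLXNA1 at 13 CPM per kb. SEMA6A followed at 9.04 and SEMA4C at 8.06 CPM per kb, and SEMA5B at 0.0766 and SEMA6B at 0.0115 CPM per kb came last. PLXND1, SEMA6D and PLXNA1 lay close to one another. SEMA5A went from rank 17 to 29 of the 31 in the knockdown, PLXNA2 from 24 to 16 and SEMA7A from 26 to 17. Summed over all plexins the level was 57.4 and 57.0 CPM per kb in sh-Scb and 64.2 and 77.1 in sh-SAPCD2, and over all semaphorins 62.3 and 60.4 against 66.7 and 72.6.

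The called members also differed in base composition. The GC content of the canonical transcript had a median of 60.5% in the 13 higher members (range 44.3% to 65.0%) and 37% in the 4 lower ones (36.7% to 45.6%), and 57.8% in the 13 not called. Over all tested protein-coding genes the median was 48.6%, with 52.9% in the higher and 45.9% in the lower genes. After the correction for GC content and length 15 of the 30 members were higher and 7 were lower (23.3%), where 22.9% of all genes in that fit were higher and 19.9% were lower, so calls were more frequent among all genes and the lower share of the members was near theirs. None of the 17 called members lost its call or changed direction. Among the called members the correction lowered the log2 fold change most, relative to its size, for PLXND1 (from 0.60 to 0.34), PLXNB1 (from 0.62 to 0.38) and SEMA6C (from 0.83 to 0.54).

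**Figure D4:**
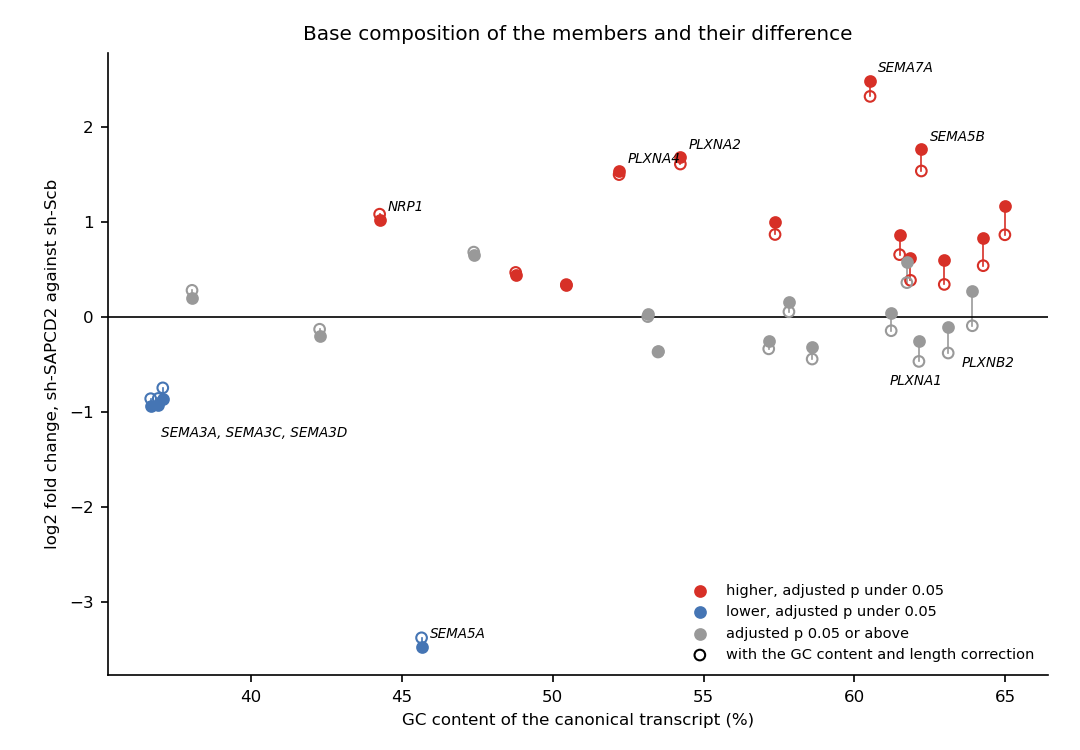
GC content of the canonical transcript (horizontal axis, percent) against the log2 fold change of each tested member (vertical axis), with filled points uncorrected and open points after correction for GC content and length. SEMA3A, SEMA3C and SEMA3D lie near 37% GC and most higher members lie above 50%, and the open points stay on the same side of 0 for the called members.

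The study describes 2 hairpins against SAPCD2, and the labels do not say which was used, so the 3′ UTRs of the members were searched for 7 bases that pair with the seed (bases 2 to 8, in capitals) of each guide strand.
sh-SAPCD2 #1 guide: aTGAAGGTggaatccagaggt
sh-SAPCD2 #2 guide: aTCATCTCcaaaccctgcagc
The match of the first, ACCTTCA, was in 7 of the 31 members (22.6%, PLXNA1, PLXNA3, PLXNA4, SEMA3A, SEMA4D, SEMA4F and SEMA6A) against 12.5% of 13580 tested protein-coding genes and 14.9% of the lower ones. PLXNA3, PLXNA4 and SEMA6A of that group were higher and SEMA3A was lower. The match of the second, GAGATGA, was in 5 members (16.1%, NRP1, PLXNA2, PLXNC1, SEMA3A and SEMA5A) against 14.8%. The 3′ UTRs of the members were longer, with a median of 2356 bases against 1346. A site in each of the lower genes with a guide match, with the match in capitals, reads as follows, at base 5324 of the 5594-base SEMA3A 3′ UTR and base 1751 of the 7864-base SEMA5A 3′ UTR.
SEMA3A, #1 match: aatgagacccACCTTCAtcttgaatat
SEMA5A, #2 match: cagatttacaGAGATGAcacagtattg
SEMA5A held no match to the #1 guide, but it held CCAGAGG, the match of that hairpin's other strand (the passenger), at base 4556. The passenger match of each hairpin was in 8 members (25.8%), against 17.6% of the tested protein-coding genes for #1 and 20.8% for #2. These matches are descriptions of the sequence, and whether either hairpin acted on a member was not tested.

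Of 63 signalling partners, listed by their role around the receptors, 56 were tested, 14 were higher (25%), 7 were lower (12.5%) and 35 were not called, with a median log2 fold change of 0.17. Over all tested genes 12.4% were higher and 12.5% were lower, so the share of lower partners was that of the background. The number of partners called differed with 1 library left out, as did the number over all genes, so those counts are not compared. The collapsin response mediator proteins, which carry the semaphorin signal to microtubules, had 2 lower and 1 higher of 5. CRMP1 had 374 and 362 CPM in sh-Scb and 95.2 and 111 CPM in sh-SAPCD2 (−1.83, SE 0.115, adjusted p = 0.00201), and DPYSL5 had 300.3 and 292 against 133 and 161 CPM (−1.01, SE 0.122, adjusted p = 0.00471). Both were lower in both knockdown libraries. Of 15 tested kinases and cytoskeletal effectors, 3 were higher and 1 was lower. GSK3B, a kinase that acts on these mediators, fell from 137 and 136 to 74.6 and 57.4 CPM (−1.05, adjusted p = 0.00646). MICAL2, an actin-oxidizing enzyme, had 6.80 and 3.23 against 14.0 and 13.5 CPM (1.45, adjusted p = 0.0269).

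Of 6 proteases that cut semaphorins or their partners, 3 were higher (50%) and none was lower, against 12.4% and 12.5% of all tested genes. They were led by the membrane metalloprotease MMP14, with 104 and 102 CPM in sh-Scb and 316 and 386 CPM in sh-SAPCD2 (1.76, SE 0.128, adjusted p = 0.00201). The VEGF ligands, which share the neuropilins, had 3 higher (60%) and 1 lower (20%) of 5. VEGFD fell from 10.1 and 9.40 to 3.47 and 3.31 CPM (−1.53, adjusted p = 0.00485) and PGF rose from 5.64 and 4.54 to 8.40 and 13.2 CPM (1.09, adjusted p = 0.0325). Of 9 tested co-receptors, 2 were higher (22.2%) and 1 was lower (11.1%, near the background share). The lower one was ERBB2, a partner of B plexins, which had 10.3 and 9.00 against 3.51 and 5.72 CPM (−1.05, adjusted p = 0.0352). MET, CHL1 and FLT1 had no count in any library. Of 16 tested GTPases and regulators that act below plexins, 2 were higher, 2 were lower (12.5% each, near the background shares) and none passed the fold threshold. RHOA had the smallest p of them, with 243 and 253 CPM in sh-Scb and 136 and 130.5 CPM in sh-SAPCD2 (−0.90, SE 0.0957, adjusted p = 0.00365).

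**Figure D5:**
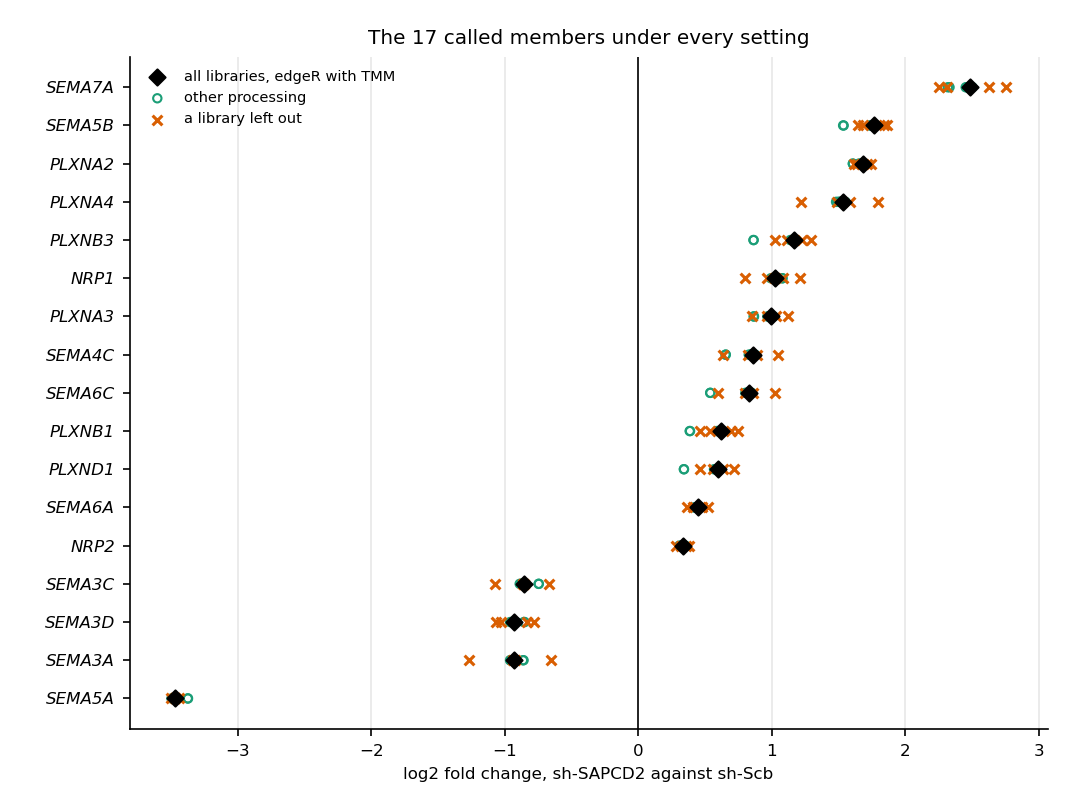
Log2 fold change of the 17 called members (horizontal axis) as fitted in the report and under each of 13 alternative settings. No point crosses 0, and SEMA5A keeps between −3.50 and −3.37.

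Across the 13 alternatives the 17 called members gave 221 values, of which 194 kept direction and call, 27 kept direction without passing the threshold and 0 changed sign. The 7 that kept their call throughout were PLXNA2, PLXNA3, PLXNA4, PLXNB3, SEMA5A, SEMA5B and SEMA7A. The other called members, among them SEMA4C (adjusted p = 0.0549) and NRP1 (adjusted p = 0.0521), lost their call without the filter on low counts. The fold threshold is not among the 13, and PLXNA3 (log2 fold change 0.997) did not pass it. Fits without 1 library are among the 13, and a call kept or lost in them rests on the spread of the other group alone.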

How the data were processed

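RNA-seq counts were analysed for 4 libraries of SK-N-BE(2) cells. Reads of 150 bp, paired, were aligned by the authors to hg38 with HISAT2 2.2.0 and quantified with StringTie, and the authors deposited whole-number counts per gene, not scaled for library size. The counting step, its strand setting and the handling of multiply mapped reads are not given in the sources used here. Scaling was by TMM. Groups were compared in edgeR 4.0.16 (R 4.3.3), by its quasi-likelihood method, on genes passing filterByExpr (minimum count 10, minimum total 15), and p-values were adjusted by Benjamini-Hochberg over all 18779 tested genes. The biological coefficient of variation was 15.4%. Positions, lengths and GC content came from GENCODE 44, which matched 17467 tested genes. CPM per kb used the union of exons. Libraries held 25347900 to 31850997 counts. The floor of 3 counts covers counting error only, while SDs, SEs and p-values come from the spread between libraries.

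As alternatives, the fit was repeated in DESeq2 1.42.0, in edgeR with DESeq2 size factors or with library totals alone, unfiltered, on genes averaging 1 CPM or more, on protein-coding genes, with same-numbered libraries as a block, after loess adjustment (span 0.3) for GC content and length with or without that block, with a fold threshold, and without each library in turn. A fit without 1 library leaves 1 library in its group, so its spread comes from the other group alone. The members and lists were chosen with earlier results of these data known, so counts over them are descriptions. Named genes were SAPCD2, all members, the adrenergic markers, other markers with 1 CPM or more, and the signalling partners past the fold threshold, or with the smallest p where a list had none. Some of the markers are not reported here. MET, CHL1, FLT1, CD3E and SOX10, listed as absent, and the chromosome 7 neighbors were named after their values were seen.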

Additional observations from a re-analysis of the deposited data

How the results depend on the processing

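Of the members, 13 were higher and 4 lower. Without the filter on low counts, 6 were higher and 1 lower, as with the fold threshold (6 and 1). With the GC content and length correction 7 were lower, and 7 with the block added. Leaving out 1 library gave 8 to 15 higher and 3 to 7 lower, with 8 higher without sh-Scb replicate 1 or 2. For the signalling partners (14 higher, 7 lower), no filter gave 5 higher, the fold threshold 3 higher, the correction 12 lower and the correction with the block 11 lower, and leaving out 1 library gave 6 to 22 higher and 5 to 15 lower. SAPCD2 kept its −0.91 without the filter but not its call (adjusted p = 0.0749), and ranged from −1.23 to −0.67 with 1 library out. In the fits without 1 library the number called over all genes differed as well, and the spread came from the other group alone. Counts from those fits, for members and for partners, are therefore not compared with the main fit. The cause of these differences between settings was not tested.

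Same-numbered libraries did not deviate together (correlation −0.02). From 2 libraries a group, this value cannot tell whether those sharing a number were handled together. The labels do not say what the numbers stand for, and a pairing was not tested. With the replicate block 14 members were higher and 4 lower, SEMA3F (adjusted p = 0.0283) and PLXNC1 (adjusted p = 0.0354) gaining a call and NRP2 losing it (adjusted p = 0.114), and 2860 genes were higher and 2701 lower against 2326 and 2339.

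No called member changed sign. Uncalled ones did. SEMA3B was −0.043 with the block, −0.093 with the correction and −0.32 with both, and SEMA4B −0.15 with the correction and −0.15 with both. With 1 library left out SEMA3B ranged from −1.42 to 1.00, SEMA3G from −0.81 to 0.46, SEMA4B from −0.093 to 0.16, SEMA4F from −0.10 to 0.17 (−0.01 without sh-SAPCD2 replicate 2), SEMA4G from −0.071 to 0.34 and PLXNB2 from −0.33 to 0.07. Depth limits SEMA3B, SEMA3G and SEMA5B most, with 13, 16 and 17 counts in their lowest library.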
